A study of Mus musculus with 6 samples.

Results

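The genes described here encode the enzymes and the cofactor with which the pancreas digests dietary fat: carboxyl ester lipase (*Cel*), colipase (*Clps*), pancreatic lipase (*Pnlip*), the pancreatic lipase-related proteins *Pnliprp1* and *Pnliprp2*, and phospholipase A2 group IB (*Pla2g1b*). They were taken as a list of 6 genes by name, and every probe set annotated to 1 of them and to no other gene was used. The arrays held 10 such probe sets, for 5 of the 6 genes, among 34958 probe sets with a single gene symbol that stand for 18194 genes. *Pnlip* was not analysed here.

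Whole pancreases of C57BL/6 mouse embryos at e15.5 were compared between 3 wild-type samples (*Jarid2* WT) and 3 samples with a pancreas-specific knockout of *Jarid2* (*Jarid2* Δpanc), a cofactor of the Polycomb repressive complex that methylates histone H3. The knockout carries *Pdx1-Cre* and a floxed *Jarid2* on both alleles. The Cre is driven by the *Pdx1* promoter, so deletion is restricted to the pancreatic epithelium and is mosaic there, and other cells of the organ keep the gene. No treatment is named for either group, and whether a sample is 1 embryo or a pool is not stated in the labels, so the tests measure only the spread between these samples. RNA was amplified through 2 cycles of cDNA synthesis from 50 ng and hybridized to Affymetrix arrays, 1 per sample. One description label names islets in glucose. The remaining labels and the methods name embryonic pancreas, which was followed.

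In the intestine, fat is present as droplets that bile salts coat. Pancreatic lipase cleaves triglycerides at the droplet surface but is displaced by bile salts, and colipase anchors it there. Carboxyl ester lipase hydrolyses cholesteryl and vitamin esters as well as triglycerides in the presence of bile salts, and phospholipase A2 group IB cleaves phospholipids. Pancreatic lipase-related protein 2 hydrolyses galactolipids and triglycerides and is known for its role in the suckling animal, whereas pancreatic lipase-related protein 1 shows little or no activity on triglycerides. All of these proteins are made by acinar cells, which differentiate from the tips of the branching epithelium around the stage studied, and stored in zymogen granules with the proteases and amylase.

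The promoters of the lipases with a readable signal are shown because these genes are read below as members of the acinar programme, whose enzyme promoters are known to be bound by PTF1, a complex of Ptf1a and an RBPJ protein that recognizes an E-box next to a TC-box. RefSeq sequence (GRCm38.p6) of the 250 bases before the start of each gene was searched on both strands for the E-box CACCTG (written CAGGTG on the other strand), the core of the TC-box TGGGAA (written TTCCCA on the other) and the TATA sequence TATAAA (or TTTATA on the other), and matches are in capitals. The motifs share no bases with each other in the 3 promoters. 5 of the 6 genes had an entry, and *Clps* did not. The promoters lie at chr2:28563404-28563653 on the minus strand (*Cel*), chr19:58728637-58728886 on the plus strand (*Pnliprp1*) and chr19:58759473-58759722 on the plus strand (*Pnliprp2*), each printed 5′ to 3′ along its gene.
Cel: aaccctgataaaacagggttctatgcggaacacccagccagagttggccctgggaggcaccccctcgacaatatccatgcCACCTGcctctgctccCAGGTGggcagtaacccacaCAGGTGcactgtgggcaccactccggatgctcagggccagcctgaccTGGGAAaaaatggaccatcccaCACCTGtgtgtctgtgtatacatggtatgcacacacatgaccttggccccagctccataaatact
Pnliprp1: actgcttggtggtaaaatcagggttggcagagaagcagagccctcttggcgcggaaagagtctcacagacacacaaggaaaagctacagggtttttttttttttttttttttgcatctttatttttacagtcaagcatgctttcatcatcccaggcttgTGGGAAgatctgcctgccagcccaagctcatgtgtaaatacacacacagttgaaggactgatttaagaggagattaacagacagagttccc
Pnliprp2: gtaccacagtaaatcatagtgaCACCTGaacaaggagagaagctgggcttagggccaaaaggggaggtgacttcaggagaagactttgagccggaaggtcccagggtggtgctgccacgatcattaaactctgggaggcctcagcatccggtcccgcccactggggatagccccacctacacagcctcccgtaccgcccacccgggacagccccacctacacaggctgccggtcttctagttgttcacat

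The promoter of *Cel* held 4 E-boxes, which begin 170, 154, 134 and 65 bases before the start, and 1 TC-box core, which begins 87 bases before it. *Pnliprp1* had 1 TC-box core at 91 bases and no E-box of these letters, and *Pnliprp2* had 1 E-box at 228 bases and no TC-box core. The promoter of *Pnlip* held a TC-box core at 171 bases and a TATA sequence at 30 bases, and that of *Pla2g1b* held none of the letters searched. Among 32851 mouse promoters of this length, 17.2% held the E-box, 21.6% the TC-box core and 3.91% both. *Cel* was thus the only one of the 5 lipid enzyme promoters with both. Of 14 promoters of 13 genes from a list of 22 other acinar digestive enzymes, measured here or not, 64.3% held the E-box, 64.3% the TC-box core and 35.7% both. These are matches of letters and say nothing about binding in these samples.

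Signals of *Cel*, *Clps* and *Pnliprp2* were lower in all 3 *Jarid2* Δpanc samples than in any *Jarid2* WT sample, with mean log2 values that correspond to 61.6%, 72.4% and 71.8% of the *Jarid2* WT level. *Pnliprp1*, which neighbours *Pnliprp2* on chromosome 19, had 90.9% of the *Jarid2* WT level with groups that overlapped. *Pla2g1b* was at or near the lowest readable signal in both groups. None of the differences passed an adjusted p of 0.05 from limma, where the share of all 18194 genes that passed was 0%. An unadjusted p under 0.05 with a lower signal was reached by 3 of the 4 genes with a readable signal, against 4.44% of all genes. Non-overlapping lower groups were found for the same 3 of 4, against 5.64% of all genes. Of the 6045 genes with a mean signal of at least 200, to which all 4 belong, 11.1% had every *Jarid2* Δpanc sample below every *Jarid2* WT sample. Within whole organs, fewer cells of a type and less RNA per cell cannot be told apart.

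*Cel* showed the largest difference of the 4 genes. Its probe set (1417257_at) had signals of 4407, 4757 and 4140 in *Jarid2* WT replicates 1 to 3 and of 2575, 2722 and 2900 in *Jarid2* Δpanc replicates 1 to 3. The highest *Jarid2* Δpanc signal thus lay well below the lowest *Jarid2* WT signal, and each group was tight. Means were 4435 ± 309 and 2732 ± 163 (SD, n = 3). The log2 fold change was -0.70 with a standard error (SE) of 0.07 and a 95% interval of -0.89 to -0.51, unadjusted for the number of genes (adjusted p = 0.219, limma). By its p-value *Cel* ranked 24 among the 18194 genes.

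*Clps*, the cofactor that holds pancreatic lipase on the lipid droplet, is read by 2 probe sets. The brighter (1415805_at) had 14078, 14800 and 12804 in *Jarid2* WT and 9838, 10688 and 9632 in *Jarid2* Δpanc. Means were 13894 ± 1011 and 10053 ± 560 (SD, n = 3), and the groups did not overlap. The log2 fold change was -0.47 (SE 0.07, 95% interval -0.66 to -0.28, adjusted p = 0.254, limma). The second probe set (1438612_a_at) had 11293, 11939 and 10290 in *Jarid2* WT and 7953, 8611 and 7966 in *Jarid2* Δpanc. It gave the same order of groups, with a log2 fold change of -0.45 (SE 0.07, adjusted p = 0.254 over all probe sets, limma). Within an array the first was 1.21 to 1.25 times as bright as the second on all 6 arrays, so that both probe sets recorded nearly the same pattern. They read the same RNA and are not replicates of each other.

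*Pnliprp2*, the galactolipase, is also read by 2 probe sets, and signals of different probe sets cannot be compared as levels. Its brighter probe set (1448186_at) had 524, 495 and 427 in *Jarid2* WT and 321, 371 and 344 in *Jarid2* Δpanc. The means of 482 ± 49.8 and 345 ± 25.0 (SD, n = 3) gave a log2 fold change of -0.48 (SE 0.10, 95% interval -0.74 to -0.21, adjusted p = 0.331, limma). *Jarid2* WT replicate 3 was the nearest of its group to the *Jarid2* Δpanc samples. The second probe set (1437438_x_at) had 220, 230 and 207 in *Jarid2* WT and 170, 176 and 152 in *Jarid2* Δpanc, again without overlap. Its log2 fold change was -0.40 (SE 0.07, adjusted p = 0.299 over all probe sets, limma). The ratio of the 2 probe sets within an array varied from 1.89 to 2.38, which is wider than for *Clps*.

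*Pnliprp1*, the relative with little activity on triglycerides, gave some of the highest readings on the arrays. Its probe set (1415777_at) had 14784, 15580 and 15027 in *Jarid2* WT and 12403, 15995 and 13112 in *Jarid2* Δpanc. *Jarid2* Δpanc replicate 2 was the highest of all 6 samples and the other two *Jarid2* Δpanc samples were the lowest. Means were 15130 ± 408 and 13837 ± 1902 (SD, n = 3), and the log2 fold change of -0.14 (SE 0.11, 95% interval -0.42 to 0.14, adjusted p = 0.815, limma) did not exceed the spread between samples. The interval leaves room for a decrease of up to 25.2%. Without *Jarid2* Δpanc replicate 2 the log2 fold change was -0.25 (SE 0.04, adjusted p = 0.353, limma), and without *Jarid2* Δpanc replicate 1 it was -0.06.

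The brightest readings of the arrays moved in the same way as *Pnliprp1*. The mean of the 50 highest readings was 15591, 15816 and 15157 in *Jarid2* WT and 13449, 16792 and 14136 in *Jarid2* Δpanc replicates 1 to 3. As a share of the highest reading of its array, *Pnliprp1* had 59.9%, 62.1% and 62.0% in *Jarid2* WT and 63.5%, 64.1% and 62.1% in *Jarid2* Δpanc. On this scale, which rests on 1 reading per array, the *Jarid2* Δpanc samples were not lower. The lowest of them (replicate 3, 62.13%) nearly equalled the highest *Jarid2* WT sample (replicate 2, 62.09%). *Clps*, which also lies at the bright end of the scale, had 57.0%, 59.0% and 52.8% in *Jarid2* WT and 50.4%, 42.8% and 45.6% in *Jarid2* Δpanc and remained without overlap. After quantile normalization, which gives all arrays the same distribution, *Pnliprp1* had a log2 fold change of -0.05 (SE 0.03) and *Clps* of -0.39 (SE 0.06). Among the 55 genes with a mean signal of at least 9000, a limit chosen after the values were seen, log2 fold changes ran from -0.47 to 0.18 with a median of -0.08, and *Clps* was the lowest. The part of the bright end of the scale in these values was not tested.

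**Figure D1:**
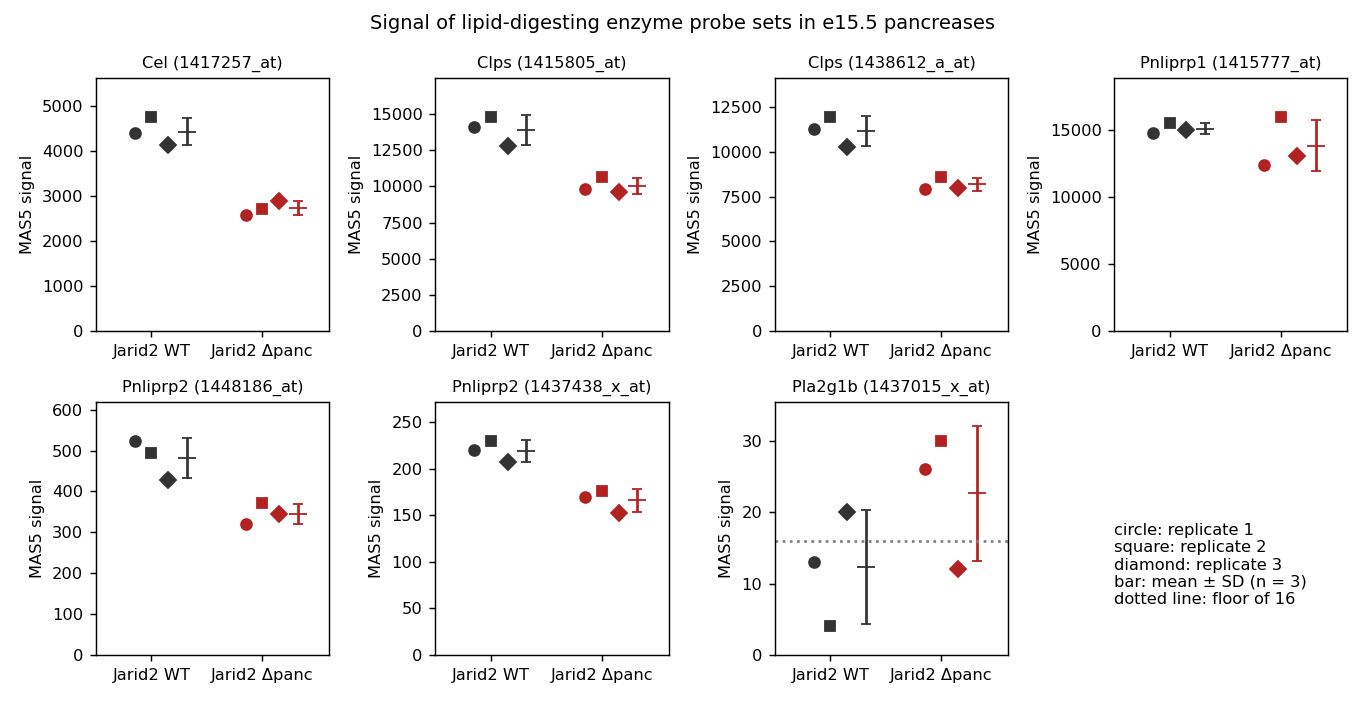
MAS5 signal (linear scale from 0) of the 6 readable probe sets of *Cel*, *Clps*, *Pnliprp1* and *Pnliprp2* and of 1 *Pla2g1b* probe set in 3 *Jarid2* WT and 3 *Jarid2* Δpanc samples, with points for samples, the mean ± SD beside them and a dotted line at the floor of 16. In 5 of the 6 readable probe sets all *Jarid2* Δpanc points lie below all *Jarid2* WT points, whereas the groups of *Pnliprp1* and of *Pla2g1b* overlap.

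*Pla2g1b*, the phospholipase, has 4 probe sets with signals of 1 to 30 in any sample, around the floor of 16 that was set for the comparison. The probe set 1437015_x_at had 13, 4 and 20 in *Jarid2* WT and 26, 30 and 12 in *Jarid2* Δpanc, and 1416626_at had 2, 16 and 28 against 21, 18 and 17. The 2 others (1433948_at and 1433949_x_at) did not exceed 16 in any sample. The groups overlapped in all 4, and no fold change is given. A signal at the floor sets only an upper limit to what these probes read and does not show that the transcript is absent.

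Compared within each array, *Cel* had the lowest and *Pnliprp1* the highest log2 fold change of the 4 genes. The difference between the log2 fold changes of *Cel* and *Pnliprp1* was -0.56, with within-array differences that did not overlap between the groups, and that of *Cel* and *Clps* was -0.23, also without overlap. *Clps* and *Pnliprp2* had nearly equal fold changes, with a difference of 0.01 and a 95% interval of -0.17 to 0.19 from the pooled variance of the within-array differences. *Clps* was lower than *Pnliprp1* by a difference of -0.33, and *Pnliprp1* stood 0.34 above *Pnliprp2*, both without overlap. *Cel* and *Pnliprp2* differed by -0.22 with overlap. A two-sided exact permutation test over the 6 samples gave p = 0.1 for the 4 pairs without overlap, the smallest value that 3 against 3 samples allow, 0.2 for *Cel* and *Pnliprp2*, and 0.8 for *Clps* and *Pnliprp2*. After Benjamini-Hochberg adjustment over the 6 pairs the values of the exact test were 0.15, 0.24 and 0.8, so no pair could pass 0.05 in this design.

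Samples of a group were compared by the ratio of the highest to the lowest signal. In *Jarid2* WT it was 1.05 for *Pnliprp1*, 1.15 for *Cel*, 1.16 for *Clps* and 1.23 for *Pnliprp2*. In 14 measured genes of other acinar digestive enzymes it ran from 1.05 to 5.36 with a median of 1.65. Of these, 9 exceeded 1.5. The ratios were taken without the floor, and the highest was that of the dim *Ctrl* (25, 59 and 11). The bright *Cpa1*, *Ctrb1* and *Cela1* had 1.05, 1.07 and 1.2, close to the lipid genes, whereas the bright *Cela3b* had 1.62. The lipid genes and the other enzymes were closer to each other in *Jarid2* Δpanc. Ratios there were 1.11 to 1.29 in the 4 lipid genes, where *Pnliprp1* was the widest. In the other enzymes they were 1.07 to 4.78 with a median of 1.32, and 5 exceeded 1.5. The highest was that of the dim *Ctrc* (41, 23 and 110). *Cela1*, *Amy1* and *Prss2* were tighter there than *Cel*. *Jarid2* WT replicate 2 had the highest signal of its group in 3 of the 4 lipid genes and in 11 of the 14 other enzymes. Elastase 2A (*Cela2a*), chosen after its values were seen, had 1857, 3702 and 1952 in *Jarid2* WT. These are descriptions of the samples, and the difference in spread was not tested.

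All 14 other digestive enzymes had a negative log2 fold change, with a median of -0.69 over the genes, beside 0 over all genes. 8 of the 14 had all *Jarid2* Δpanc samples below all *Jarid2* WT samples, beside 5.64% of all genes. 8 were lower at an unadjusted p under 0.05, beside 4.44% of all genes, and 0 passed the adjusted threshold. The brightest of them lay on both sides of the lipid genes. Chymotrypsinogen B1 (*Ctrb1*) had a log2 fold change of -0.07 (SE 0.12) and carboxypeptidase A1 (*Cpa1*) of -0.07 (SE 0.10), near the value of *Pnliprp1*. Elastase 1 (*Cela1*) had -0.39 (SE 0.08), near *Clps*, and elastase 3B (*Cela3b*) had -1.63 (SE 0.30), beyond *Cel*. Like *Pnliprp1*, *Cpa1* was highest in *Jarid2* Δpanc replicate 2, with 11960, 15123 and 12283 in *Jarid2* Δpanc against 13777, 14039 and 13350 in *Jarid2* WT.

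Genes of the acinar secretory machinery mostly had negative values. Of 19 measured genes 18 had a negative log2 fold change, with a median of -0.53. In 13 the groups did not overlap and were lower, beside 5.64% of all genes, and 11 were lower at an unadjusted p under 0.05, beside 4.44%. The 4 brightest were the cholecystokinin receptor *Cckar* (-0.57, SE 0.17), the serpin *Serpini2* (-0.76, SE 0.09), the trypsin inhibitor *Spink1* (-1.22, SE 0.10) and *Tmed6* (-0.56, SE 0.14). None passed the adjusted threshold. Acinar transcription factors stood nearer to the *Jarid2* WT level, with 6 of 9 negative, 1 of 9 without overlap and a median of -0.11. That count of 1 lies near the background, which was 5.64% of all genes and 11.1% of those with a mean signal of at least 200. The one without overlap was *Rbpjl*, the RBPJ protein of the acinar PTF1 complex, with 498, 515 and 455 in *Jarid2* WT and 322, 396 and 385 in *Jarid2* Δpanc (log2 fold change -0.42, SE 0.10, adjusted p = 0.382, limma). It was named after its values were seen. Of the 4 brightest, *Ptf1a* had -0.30 (SE 0.19), *Bhlha15*, which encodes the secretory cell factor Mist1, -0.27 (SE 0.13), *Xbp1* -0.11 (SE 0.07) and *Nr5a2* 0.01 (SE 0.11).

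**Figure D2:**
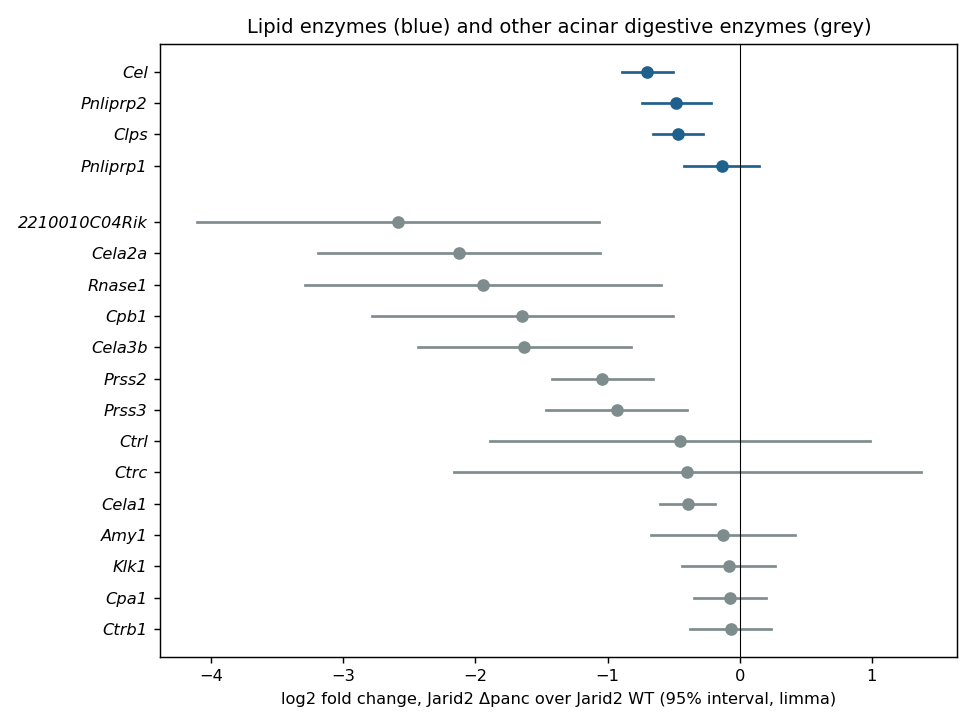
Log2 fold change of *Jarid2* Δpanc over *Jarid2* WT (horizontal axis) with its 95% interval from limma, for the 4 lipid enzyme genes with a readable signal (blue) and 14 other acinar digestive enzymes (grey). *Cel*, *Clps* and *Pnliprp2* lie between -0.70 and -0.47 with narrow intervals, *Pnliprp1* lies at -0.14 with an interval that includes 0, and the elastase genes spread from -2.12 to -0.39.

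The remaining genes of lipid digestion, uptake and handling gave no common direction. Of 57 genes listed, 52 were measured and 7 of these lay at the floor on all arrays. 27 had a negative log2 fold change, the median was -0.01, 0 passed the adjusted threshold, and an unadjusted p under 0.05 was reached by 2 with a lower and 2 with a higher signal, where 4.44% of all genes were lower and 4.37% higher by that measure. Signals of all 3 *Jarid2* Δpanc samples were below all *Jarid2* WT samples in 4 genes (*Mgll*, *Pla2g3*, *Pla2g5* and *Pla2g12a*) and above them in 2 (*Lipa* and *Lipk*). With 5.64% of all genes below and 5.71% above, these counts of 52 lie near the background, and the values that follow are descriptions. Monoacylglycerol lipase (*Mgll*) had 507, 481 and 486 in *Jarid2* WT and 393, 400 and 464 in *Jarid2* Δpanc, which gave a log2 difference of -0.23 (SE 0.07, adjusted p = 0.495, limma). *Pla2g12a*, a secreted phospholipase A2, had 488, 521 and 436 against 420, 434 and 392 (-0.21, SE 0.08, adjusted p = 0.577, limma).

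Lysosomal acid lipase (*Lipa*), which hydrolyses cholesteryl esters and triglycerides inside cells, had 105, 108 and 103 in *Jarid2* WT and 142, 134 and 124 in *Jarid2* Δpanc, which gave a log2 difference of 0.34 (SE 0.06, adjusted p = 0.265, limma). *Pla2g3* was dim, with 35, 38 and 34 against 23, 23 and 26, and *Pla2g5* and *Lipk* lay around the floor. By role, 10 of 17 other lipases, 10 of 12 other secreted phospholipases A2, 6 of 18 genes of uptake, re-esterification and lipoprotein assembly and 1 of 5 bile acid genes had a negative log2 fold change. Their medians were -0.09, -0.10, 0.05 and 0, or, leaving out genes that every array read at the floor, -0.15, -0.10, 0.08 and 0.09. Gastric lipase (*Lipf*) was at the floor on all arrays, and lipoprotein lipase (*Lpl*) had -0.16 (SE 0.08). *Clpsl2*, the colipase-like gene beside *Clps* on chromosome 17, was not analysed here.

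The genes most like each lipid enzyme over the 6 samples were named by the root mean square (RMS) difference between log2 profiles, each taken relative to its own *Jarid2* WT mean, among 6044 other genes with a mean signal of at least 200. *Pnliprp2* was most like *Clps*, with an RMS of 0.065, followed by the granule GTPase gene *Rab3d* with 0.067 and the signal peptide peptidase gene *H13* with 0.077. *Clps* was most like *Reep5*, a shaper of the endoplasmic reticulum (RMS 0.042), then *Manf*, which encodes a secreted factor of the endoplasmic reticulum (0.060), and *Tm4sf4* (0.065), with *Pnliprp2* in place 4. *Cel* was most like *Ica1* (0.076), *Serpini2* (0.080) and the ribonuclease gene *Rnase4* (0.082). The median RMS over the genes ranked was 0.505 for *Cel*, 0.348 for *Clps* and 0.363 for *Pnliprp2*. *Ica1* had 419, 454 and 434 in *Jarid2* WT and 258, 283 and 310 in *Jarid2* Δpanc, in the same order of *Jarid2* Δpanc samples as *Cel*.

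*Pnliprp1* was most like 3 ribosomal protein genes, *Rpl38* (RMS 0.029), *Rps19* (0.031) and *Rpsa* (0.033), where the median RMS over the genes ranked was 0.184. *Rpl38* had 15847, 16044 and 15179 in *Jarid2* WT and 12930, 16896 and 13817 in *Jarid2* Δpanc, so it too was highest in *Jarid2* Δpanc replicate 2. The other lipid enzymes came far down the order for *Pnliprp1*, with *Clps* in place 4771, *Pnliprp2* in place 5044 and *Cel* in place 5907 of 6044. In the reverse direction *Pnliprp1* came in place 807 for *Clps*, 823 for *Pnliprp2* and 1011 for *Cel*. Profiles are relative to the *Jarid2* WT mean, so the fold changes given above enter these places. The likeness covers 6 samples that share 2 group levels and array-wide differences, so many genes score close to each other.

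**Figure D3:**
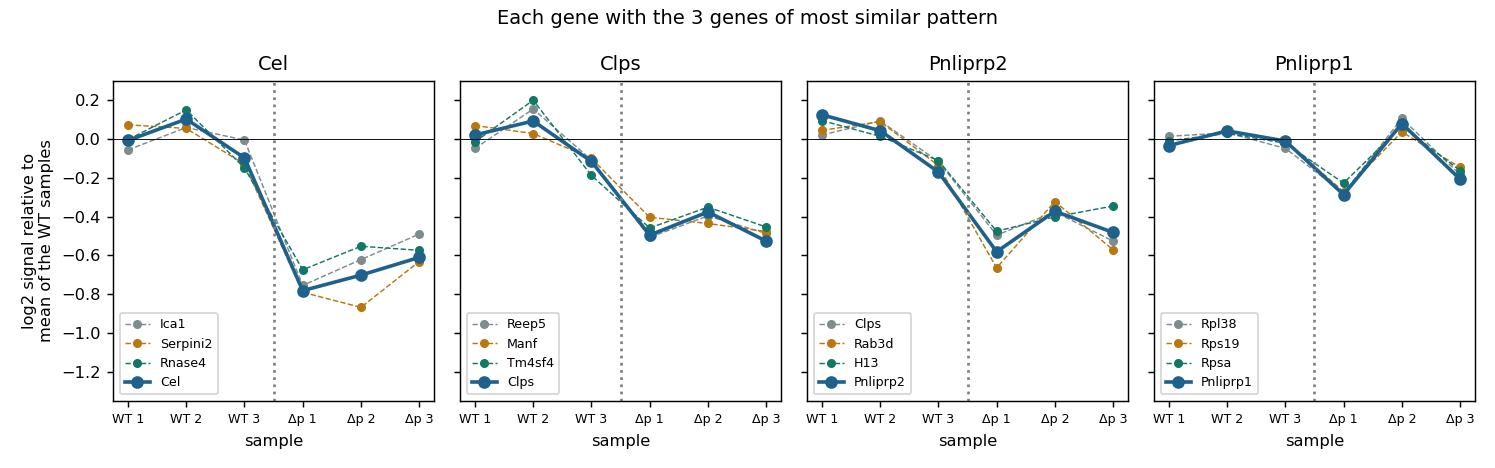
Log2 signal relative to the *Jarid2* WT mean (vertical axis) over the 6 samples for *Cel*, *Clps*, *Pnliprp2* and *Pnliprp1* (solid blue lines), each with the 3 genes of the most similar pattern (dashed). The first 3 genes step down from *Jarid2* WT to all *Jarid2* Δpanc samples, whereas *Pnliprp1* and 3 ribosomal protein genes are each higher in *Jarid2* Δpanc replicate 2 than in the other two *Jarid2* Δpanc samples.

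The samples differed in ways that the group names do not cover. The transcript of *Jarid2* gave a log2 fold change of 0.13 (SE 0.14, adjusted p = 0.817, limma), and was not lower. Where its probes lie relative to the deleted exon was not examined, so the value does not check the deletion. *Xist* was below 25 in *Jarid2* WT replicates 1 and 2 and at least 4197 in the other 4 samples. The Y-linked *Eif2s3y* was the reverse, at least 506 in these 2 samples and at most 13 in the others. By these 2 genes, *Jarid2* WT replicates 1 and 2 read as male and the other 4 samples as female. Sex is thus partly confounded with genotype in the comparison of all 6 samples, and its part in the fold changes was not tested. With *Jarid2* WT replicate 3 alone against the 3 *Jarid2* Δpanc samples, which have the same pattern of these 2 genes, *Cel* had a log2 fold change of -0.60, *Clps* of -0.35, *Pnliprp2* of -0.31 and *Pnliprp1* of -0.13. In that comparison *Cel* and *Clps* still reached an unadjusted p under 0.05 in limma and *Pnliprp2* did not. *Jarid2* WT replicate 3 also held skeletal muscle transcripts, with a summed signal of 13500 over 7 markers against 209 to 281 in the other 5 samples. Without it the log2 fold changes were -0.75 for *Cel*, -0.52 for *Clps*, -0.56 for *Pnliprp2* and -0.14 for *Pnliprp1*.

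Of 14 marker lists of cell types and tissues, 13 had summed signals that overlapped between the groups. The acinar markers, 6 of 7 measured, summed to between 38077 and 41965 in *Jarid2* WT and between 32968 and 41239 in *Jarid2* Δpanc, a sum carried mostly by *Ctrb1* and *Cpa1*. All 6 had a negative log2 fold change, with a median of -0.29. *Cela1* and *Rbpjl* were lower without overlap, as were 5.64% of all genes. The mesenchymal markers, 7 of 7 measured, summed to between 27482 and 32548 and between 30151 and 34558. All 7 of these and all 5 endothelial markers had a positive log2 fold change, with medians of 0.13 and 0.15 and groups that overlapped in each gene. The 7 endocrine markers had summed signals without overlap, between 13339 and 15704 in *Jarid2* WT and between 8743 and 10022 in *Jarid2* Δpanc. These sums, carried mostly by *Ins2* and *Gcg*, were thus lower in the same samples as *Cel*, *Clps* and *Pnliprp2*. All 7 genes had a negative log2 fold change, with a median of -0.23. Of the 7 endocrine markers, 4 (*Ins2*, *Gcg*, *Sst* and *Neurod1*) were lower without overlap, beside 5.64% of all genes. *Chga*, *Chgb* and *Neurog3* overlapped between the groups. The part of any of these marker lists in the values of the lipid enzymes was not tested. For tissues that also make lipases, 6 intestinal markers had sums between 135 and 176 in *Jarid2* WT and between 150 and 171 in *Jarid2* Δpanc, and 7 gastric markers to 288 to 395 and 323 to 427. Among the gastric markers, *Tff2* lay below without overlap (76, 98 and 73 against 54, 40 and 37, log2 fold change -0.92, SE 0.20, adjusted p = 0.343, limma) and *Gkn2*, around the floor, lay above. Adipocyte markers summed to 531 to 604 and 491 to 668 over 4 of 5 markers, of which 2 were at the floor on all arrays.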

How the data were processed

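Expression in 3 *Jarid2* WT and 3 *Jarid2* Δpanc e15.5 pancreases was measured on Affymetrix arrays. Each array's deposited table holds linear intensities for 45101 probe sets, which the authors made with MAS5 per the labels (version not given) and which are scaled to a mean of 150 after trimming 2% at each end. The methods name RMA and LIMMA for the study's own analysis, and RMA needs scanner files that were not used here. Depth does not apply, and precision is limited by the number of arrays. Per array, 26.5% to 29.0% of the probe sets read below the floor.

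Readings below a floor of 16 were raised to it before log2 transformation. The 932 probe sets with several gene symbols and the 9211 unnamed ones were left out. Of the other 34958, the one with the highest mean log2 value stood for each of 18194 genes. Groups were compared with limma 3.58.1 (lmFit and eBayes, 4 residual degrees of freedom, prior degrees of freedom 0.61) in R 4.3.3, over genes and over probe sets, with Benjamini-Hochberg adjustment, a threshold of 0.05 and 95% intervals. Differences between genes within arrays were compared by exact permutation of the samples. Only 4 genes had a readable signal, which gives 6 pairs. The fit was tested on simulated data.

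The genes and all lists were chosen with earlier results of these data known. Named genes were all lipid enzyme genes; the listed lipid genes with a mean signal of at least 100 in a group, without overlap between the groups (up to 8); the 4 brightest of each acinar list; the 3 most similar in pattern to each gene among those with a mean signal of at least 200; and *Jarid2*, *Xist*, *Eif2s3y*, *Myh3* and *Acta1*. The 2 brightest genes of each marker list also fell under the rule, and their lists are given as sums. Of the lists, 52 of 57 lipid genes, 14 of 22 other digestive enzymes, 19 of 19 secretory genes and 9 of 10 transcription factors were measured. Alternatives covered the floor, normalization, filters, variance model, probe set choice, samples left out and the replicate number as a block. Promoter sequences came from RefSeq.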

Additional observations from a re-analysis of the deposited data

How the results depend on the processing

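The log2 fold changes of *Cel*, *Clps*, *Pnliprp1* and *Pnliprp2* stayed negative in the 16 alternatives run for each. *Cel* ranged from -0.75 to -0.60 (limma adjusted p 0.129 to 0.450), *Clps* from -0.52 to -0.35 (0.196 to 0.574), *Pnliprp2* from -0.56 to -0.31 (0.223 to 0.615) and *Pnliprp1* from -0.25 to -0.05 (0.353 to 1). Between 3 and 4 of the 4 genes had all *Jarid2* Δpanc samples below all *Jarid2* WT samples, and 2 to 4 had an unadjusted p under 0.05, with 2 where *Jarid2* WT replicate 3 alone was the control. The count of genes past an adjusted p of 0.05 over all genes, 0 in limma (unadjusted p under 0.05 in 807 with a lower and 795 with a higher signal), was 3 with quantile normalization, 0 to 9 with 1 sample left out (9 without *Jarid2* WT replicate 2, 5 without *Jarid2* WT replicate 3, 6 without *Jarid2* Δpanc replicate 3, 1 without *Jarid2* Δpanc replicate 2) and 266 with *Jarid2* WT replicate 3 alone as control, whose variance is then assumed to equal that of the other group. The cause was not tested. The median of the lipid digestion, uptake and handling genes ranged from -0.0752 to 0 with 1 sample left out. The median of the other acinar digestive enzymes was -0.999 with the mean of all probe sets. The replicate numbers did not pair the samples (correlations of deviations -0.02, -0.01 and -0.02). With the number as a replicate block, *Cel* and *Clps* had limma adjusted p = 0.450, *Pnliprp2* 0.511 and *Pnliprp1* 0.744, and 0 genes passed. Signals near the floor, as for *Pla2g1b*, allow no fold change.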
